A study of Mus musculus with 2 samples.

Results

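The immediate early response genes were read in the pancreas of newborn Glis3 mutant and wild-type mice. They are 10 genes fixed by name: Fos, Fosb, Jun, Junb, Egr1, Ier2, Ier3, Dusp1, Nr4a1 and Atf3. Every probe for genes on the array whose RefSeq accession or description maps to one of them was taken, which gave 12 probes out of 41174. All 10 genes were measured, among 16512 genes well above background. Junb and Ier2 have 2 probes each and the other 8 genes have 1.

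The mutant sample was a pool of pancreas RNA from 2 pups of genotype Glis3zf/zf, homozygous for a mutant Glis3 and also labelled Glis3KO, at postnatal day 3. The wild-type (WT) sample was a pool of pancreas RNA from 2 WT pups at postnatal day 3. Glis3 is a Krüppel-like zinc finger transcription factor studied in beta cell development. The labels used here give no strain or sex, do not say what the allele removes, and name no treatment. The labelled pools were mixed and hybridised to 2 Agilent whole mouse genome arrays, once with each dye assignment, so each genotype has 1 sample. No value has a check across animals, no test between genotypes was possible, and the ± after a ratio is the distance of each array from the mean of the 2. The RNA is that of whole pancreas, so a change in the number of expressing cells and a change in RNA per cell cannot be told apart.

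Immediate early genes are switched on within minutes by growth factors, depolarisation, cytokines, injury or cell stress, without new protein synthesis. Kinase cascades phosphorylate factors already bound at their promoters, such as serum response factor with its Elk partners and CREB, and the messages are then lost again rapidly. Fos and Jun family proteins pair through leucine zippers to form the factor AP-1, Egr1 and Nr4a1 are further transcription factors, and Dusp1 and Ier3 feed back on kinase signalling and cell survival. Their messages are also known to rise while tissue is dissected.

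Of the 10 genes, Fos was the only one past the rule of size, which asks for a mean ratio of 2-fold or more, with both arrays moving the same way by 1.5-fold or more. Across all genes 0.230% passed it as higher and 0.151% as lower in the mutant pool. The other 9 members lay within 0.4 log2 of 0, with Jun at 0.32 ± 0.09 the highest of them and Junb at -0.33 ± 0.09 the lowest. The ratios of the 4 AP-1 genes thus ran from that of Fos, through those of Jun and Fosb, to that of Junb. Ratios are log2 of mutant over WT as the mean of both arrays.

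The promoters of 8 members are in the RefSeq table of build GRCm38.p6, and 3 are shown because they belong to the Fos family and Jun family genes that had the highest ratio, a ratio near 0 and the lowest ratio of the 10. Each run is the 250 bases before the annotated start, 5′ to 3′ on the gene's own strand, with matches to the searched motifs in capitals.
Fos, chr12:85473640-85473889, plus strand: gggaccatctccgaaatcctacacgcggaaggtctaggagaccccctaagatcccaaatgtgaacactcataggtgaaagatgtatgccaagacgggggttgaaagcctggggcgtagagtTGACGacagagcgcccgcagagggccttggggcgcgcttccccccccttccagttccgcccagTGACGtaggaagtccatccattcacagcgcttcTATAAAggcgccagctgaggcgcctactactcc
Fosb, chr7:19310046-19310295, minus strand: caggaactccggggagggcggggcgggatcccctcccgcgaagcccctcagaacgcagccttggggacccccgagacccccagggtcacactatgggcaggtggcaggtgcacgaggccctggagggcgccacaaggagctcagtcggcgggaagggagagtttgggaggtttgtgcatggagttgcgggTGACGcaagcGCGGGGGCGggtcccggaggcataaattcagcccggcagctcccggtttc
Junb, chr8:84978749-84978998, minus strand: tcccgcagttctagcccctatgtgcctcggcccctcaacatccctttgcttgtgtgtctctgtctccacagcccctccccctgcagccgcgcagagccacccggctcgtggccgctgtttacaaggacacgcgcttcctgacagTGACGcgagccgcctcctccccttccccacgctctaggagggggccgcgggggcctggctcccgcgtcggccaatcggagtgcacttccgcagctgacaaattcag

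The capitals mark the short core of the cyclic AMP response element (CRE core; TGACG, searched on both strands), the TATA box (TATAAA, gene strand only) and the EGR site (GCGGGGGCG, both strands). The Fos window holds CRE cores starting 129 and 66 bases before the start and a TATA box starting 33 bases before it. The Fosb window holds 1 CRE core, 60 bases before the start, followed by an EGR site at 50, and the Junb window holds 1 at 106. CRE cores were found in 6 of the 8 member windows and in 17.8% of 32851 promoter windows. The TATA box was in 7.59% of all windows and among the members in that of Fos, and the EGR site was in 2.57% and in those of Fosb and Nr4a1. The full CRE (TGACGTCA, which overlaps the core) was in 1.55% of windows and in that of Dusp1. No member window held a CArG box, the core of the serum response element, which 1.47% of windows hold, or the AP-1 site TGACTCA, in 4.46%. Egr1 and Ier2 had no window to search, and variants of the searched motifs were not counted. A match is a run of letters, not a shown binding site, and these windows say nothing of elements farther upstream.

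Fos encodes the founding Fos protein, which binds DNA with a Jun partner. Its probe (NM_010234) is placed by the array files on chromosome 12 from 82346515 to 82346574. Its normalised intensity was 271.9 in Cy5 and 268.1 in Cy3 in the mutant pool, against 128.9 in Cy3 and 133.7 in Cy5 in the WT pool. The genotypes do not overlap, and the 2 readings of each pool lie close together. The mutant over WT ratio was 1.076 where the mutant carried Cy5 and 1.003 where it carried Cy3, a mean of 1.04 ± 0.04 or 2.06-fold. The technical SD of a mean ratio among genes of similar intensity that did not pass the rule was 0.072.

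Fos was a dim gene: 27.2% of genes were dimmer. Its raw spot signal was 263.9 and 261.6 in the mutant pool and 162.0 and 128.1 in the WT pool, over local backgrounds of 46 to 50. All 4 signals were flagged as well above background. The background correction adds 50 units to each channel, which draws the ratio of a dim probe toward 0. With an offset of 0 the ratio was 1.43, or 2.70-fold, and the scanner software's own ratios gave 1.503 and 1.521 on the arrays, with software errors of 0.21 and 0.23 that describe spot noise. With an offset of 100, tried after seeing the data, the ratio was 0.82, or 1.77-fold, and Fos no longer passed. By size Fos was the 38th highest of 16512 genes and lay 0.04 log2 above the 2-fold line, and the lowest ratio among the 38 genes past the rule was 1.02.

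**Figure D1:**
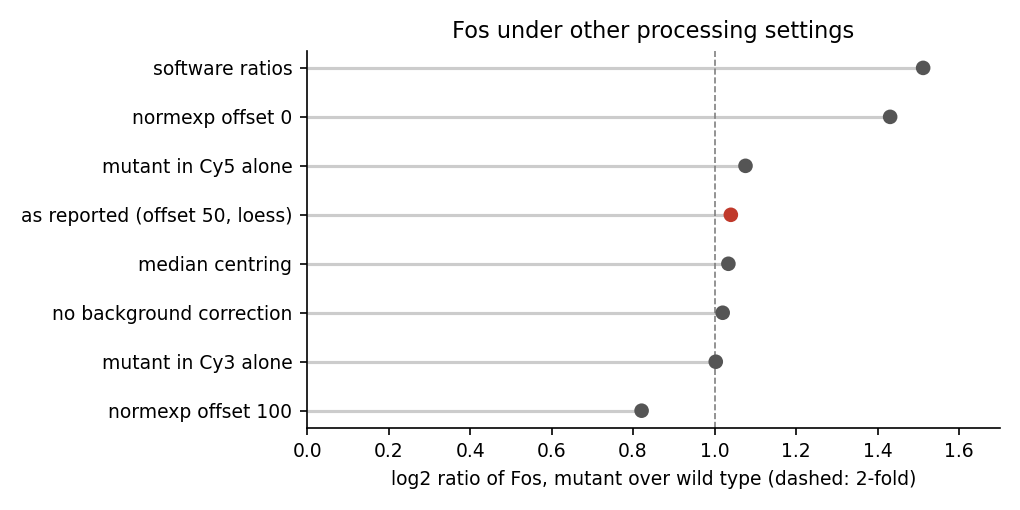
Log2 ratio of Fos, mutant over wild type, under 8 ways of processing; points are ratios, the red point is the value as reported and the dashed line is 2-fold. The values run from 0.82 with a normexp offset of 100 to 1.51 with the scanner software's ratios.

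Fosb encodes the closest relative of Fos in the list. Its probe (NM_008036) had normalised intensities of 987.6 and 1070 in the mutant pool, against 1036 and 1040 in the WT pool. The WT readings lie between the mutant ones. The ratios were -0.07 (mutant in Cy5) and 0.04 (mutant in Cy3), a mean of -0.01 ± 0.06. Fos and Fosb therefore had different ratios in the same pair of pools, 1.04 and -0.01, where each array lay 0.04 (Fos) and 0.06 (Fosb) from the mean.

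Jun encodes the Jun subunit of AP-1. Its probe (NM_010591), on chromosome 4 from 94024246 to 94024305 in the array files, had normalised intensities of 838.3 and 937.6 in the mutant pool, against 711.1 and 704.8 in the WT pool. Both mutant readings are above both WT readings. The ratios were 0.24 and 0.41, a mean of 0.32 ± 0.09 or 1.25-fold, and 98.2% of genes had a lower ratio. Jun did not reach 1.5-fold on either array.

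Junb encodes a Jun family protein that can oppose Jun at some targets. Its brighter probe (NM_008416; chromosome 8, 84245123 to 84245182) had normalised intensities of 3727 and 4425 in the mutant pool, against 4996 and 5232 in the WT pool. The mutant readings are both lower, with ratios of -0.42 and -0.24 and a mean of -0.33 ± 0.09. The second Junb probe (84245161 to 84245220) shares 22 bases of its position with the first and did not show this. Its intensities were 1392 and 1370 in the mutant pool, against 1322 and 1480 in the WT pool, which overlap. Its ratio was -0.02 ± 0.09 and changed sign between the arrays, so the 2 probes differed by 0.31 log2 and the lower Junb reading rests on 1 probe.

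**Figure D2:**
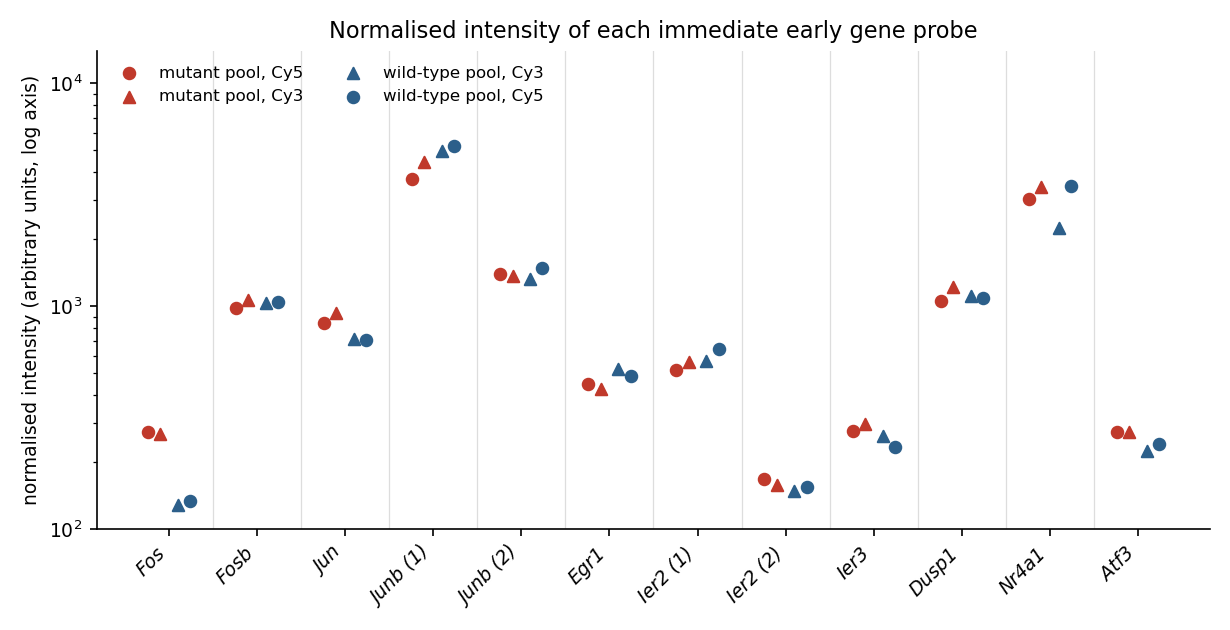
Normalised intensity (arbitrary units, log axis) of the 12 probes of the immediate early genes; red points are the mutant pool and blue points the wild-type pool, circles Cy5 and triangles Cy3, and numbers in brackets tell apart the probes of Junb and Ier2. The Fos readings are 271.9 and 268.1 in the mutant pool and 128.9 and 133.7 in the wild-type pool, while the readings of Fosb, Dusp1, Nr4a1 and the second Junb probe overlap between genotypes.

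Egr1 encodes a zinc finger transcription factor induced through serum response factor, like Fos. It had normalised intensities of 447.5 and 425.9 in the mutant pool, against 525.6 and 487.4 in the WT pool. Both mutant readings are below both WT readings. The ratios were -0.23 and -0.19, a mean of -0.21 ± 0.02 or 1.16-fold lower, the smallest difference between arrays among the 10 genes. The direction was thus opposite to that of Fos, and the size was far from the rule.

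Nr4a1 encodes the orphan nuclear receptor Nur77. Its intensities were 3042 in Cy5 and 3434 in Cy3 in the mutant pool, against 2243 in Cy3 and 3476 in Cy5 in the WT pool. The genotypes overlap because the WT readings lie far apart. The ratios were 0.44 (mutant in Cy5) and -0.02 (mutant in Cy3), a mean of 0.21 ± 0.23. That spread was the largest of the 10 genes and exceeded the mean, so no direction is given for Nr4a1.

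Atf3 encodes a stress-induced transcription factor of the ATF/CREB family that can pair with Jun proteins. Its intensities were 273.4 and 272.0 in the mutant pool, against 224.0 and 241.8 in the WT pool. Both mutant readings are higher. The ratios were 0.29 and 0.17, a mean of 0.23 ± 0.06 or 1.17-fold. Like that of Fos its probe was dim, with 37.6% of genes dimmer.

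Among the genes with feedback and other roles, Dusp1 encodes a phosphatase that switches off MAP kinases. Its intensities were 1060 and 1216 in the mutant pool, against 1109 and 1089 in the WT pool. They overlap, and the ratio of 0.05 ± 0.11 changed sign between the arrays. Ier3, which encodes a small protein linked to cell survival, had 276.8 and 296.6 in the mutant pool, against 262.0 and 234.0 in the WT pool. Its mutant readings are both higher, with ratios of 0.08 and 0.34 and a mean of 0.21 ± 0.13. Ier2, which encodes a small nuclear protein, had 516.9 and 562.4 in the mutant pool by its brighter probe, against 571.1 and 641.0 in the WT pool. That probe gave -0.17 ± 0.02, but the dimmer Ier2 probe, which does not overlap it, gave 0.10 ± 0.07. The direction of Ier2 therefore depends on the probe.

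**Figure D3:**
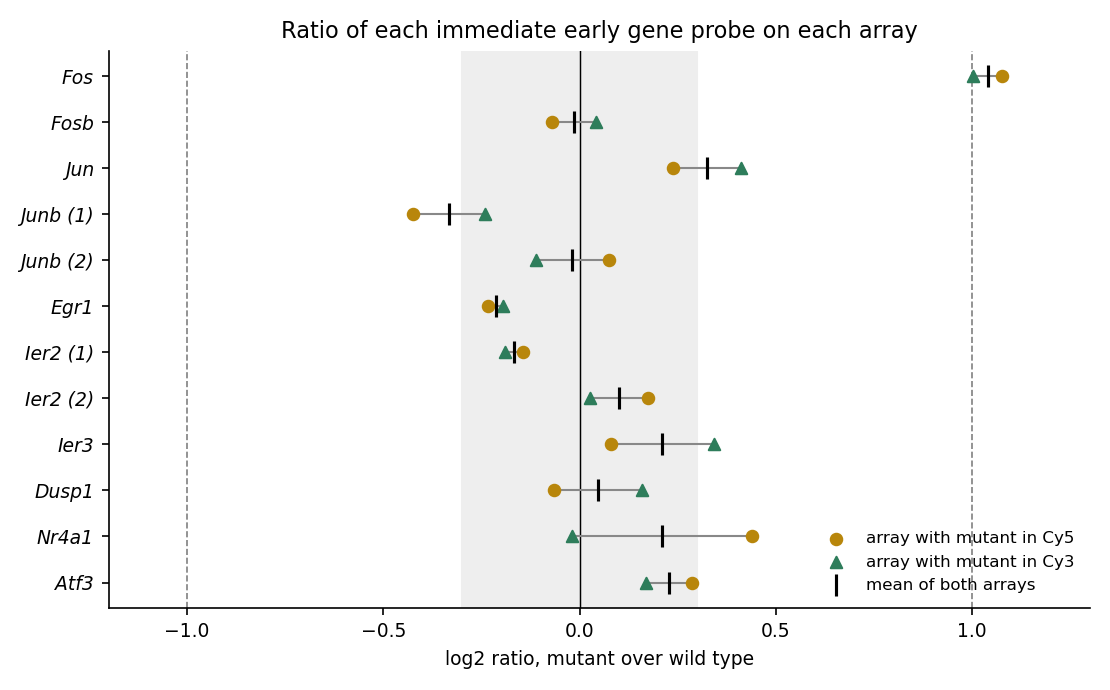
Log2 ratio of mutant over wild type for the 12 probes; circles are the array whose Cy5 channel held the mutant pool, triangles the other array and bars their mean, the dashed lines are 2-fold and the grey band is 0.3 log2 on each side of 0. Fos lies at 1.076 and 1.003, and the paired probes of Junb and of Ier2 lie apart from each other.

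Taking 1 probe per gene, the brightest, 4 of the 10 genes (Fos, Jun, Ier3 and Atf3) were above 0 on both arrays, where 32.5% of all genes were. A further 3 (Junb, Egr1 and Ier2) were below 0 on both, where 30.5% of all genes were, and Fosb, Dusp1 and Nr4a1 changed sign. Mean ratios beyond 0.3 log2 in either direction were found for Fos, Jun and Junb, 3 of 10 genes, and for 5.27% of all genes. Intensities that did not overlap between the genotypes were found for 7 of the 10 genes and for 33.4% of all genes. The 10 genes were proposed with earlier results of these arrays known, so these counts describe them and are not a test. The median ratio of the 10 was 0.13, and 0.05 without Fos, against 0.00 over all genes. Read from single arrays, the members' median was 0.01 (mutant in Cy5) and 0.10 (mutant in Cy3). By the software's single-array error, Fos was the 1 probe of 12 whose ratio exceeded 2 errors on both arrays. The share of all probes past this limit is not given here, so that count cannot be set against it.

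**Figure D4:**
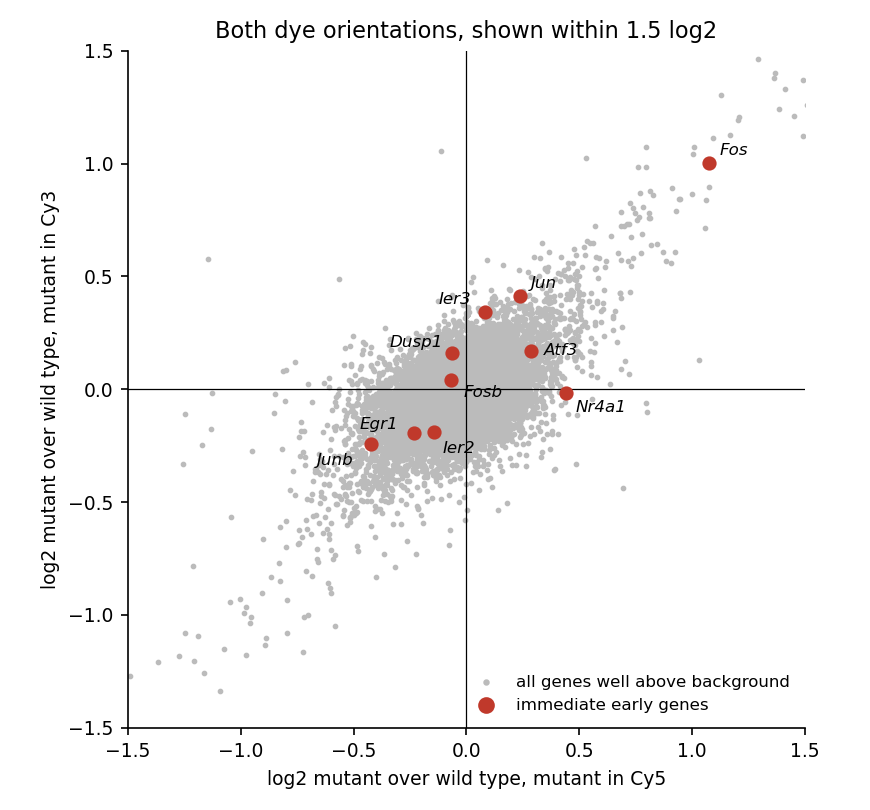
Log2 ratio of mutant over wild type from the array whose Cy5 channel held the mutant pool (x axis) and from the other array (y axis) for genes well above background within 1.5 log2; grey points are all genes and red points the 10 immediate early genes. Fos lies on the diagonal at 1.076 and 1.003, and Nr4a1 lies at 0.44 and -0.02. The other members have ratios smaller in size than Fos. By mean ratio, 98.2% of genes lie below Jun and 2.4% below Junb.

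Relatives in the Fos, Jun, Egr and Nr4a families were small in ratio. These 8 genes are named as relatives, outside the naming rule and after their values were seen. Among Fos and Jun relatives, Fosl1 had 0.06, Fosl2 0.06 (and -0.20 by its other probe) and Jund -0.10. Among Egr1 relatives, Egr2 had -0.02, Egr3 0.03 and Egr4 0.02, each changing sign between the arrays. The Nr4a1 relatives Nr4a2 and Nr4a3 had -0.13 and 0.06. By the brightest probe of each gene, the 8 ratios thus ran from -0.13 to 0.06. Fosl1, Fosl2, Egr2, Egr3, Nr4a2 and Nr4a3 were about as dim as Fos, where the offset shrinks ratios.

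Of 49 other immediate early genes measured, 0 passed the rule in either direction. Their median was 0.05 and they ran from -0.37 to 0.49, with 23 above 0 and 12 below 0 on both arrays. The highest were Klf2, a flow-responsive transcription factor, at 0.49, and Txnip, a glucose-responsive inhibitor of thioredoxin, at 0.48. The other Klf2 probe gave -0.03 and that of Txnip 0.34. The lowest were Id1, an inhibitor of basic helix-loop-helix factors, at -0.37 (-0.44 by its other probe), and Gadd45a, a growth arrest gene, at -0.23.

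The list medians of genes that act on immediate early transcription were close to 0. Of 14 upstream factors 0 passed, with a median of -0.001; Srf, which encodes serum response factor, had the lowest ratio at -0.22, followed by the CREB coactivator gene Crtc2 at -0.10, and Mef2a and the serum response factor partner Elk4 were highest at 0.08 and 0.05. Of 22 kinase cascade genes 0 passed, with a median of 0.04. Mapk9, a JNK kinase gene, had -0.11, and the highest were Map3k1 at 0.16 and the ribosomal S6 kinase gene Rps6ka1 at 0.21. Of 10 further phosphatases of the Dusp family 0 passed, with a median of -0.04. Dusp3 had -0.35 and Dusp6, the ERK phosphatase, -0.32, while Dusp7 had 0.10 and Dusp9 0.28.

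Of 11 further partners in the AP-1 network 0 passed, with a median of 0.06. Batf2 had -0.12, Batf had 0.20 and Nfe2l2, the antioxidant response factor, 0.23. Of 16 genes known as AP-1 targets 0 passed, with a median of -0.001. Ccl2, a monocyte chemokine, had -0.62 on both arrays, Ccnd1, the cyclin D1 gene, had -0.29, Timp1 had 0.15 and Spp1, the osteopontin gene, 0.31. Of 14 heat shock genes 0 passed, with a median of 0.03. The small heat shock genes Hspb1 and Cryab were highest at 0.48 and 0.46 (0.16 by the other Cryab probe), and Hspe1 and Hsph1 were lowest at -0.21 and -0.19.

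**Figure D5:**
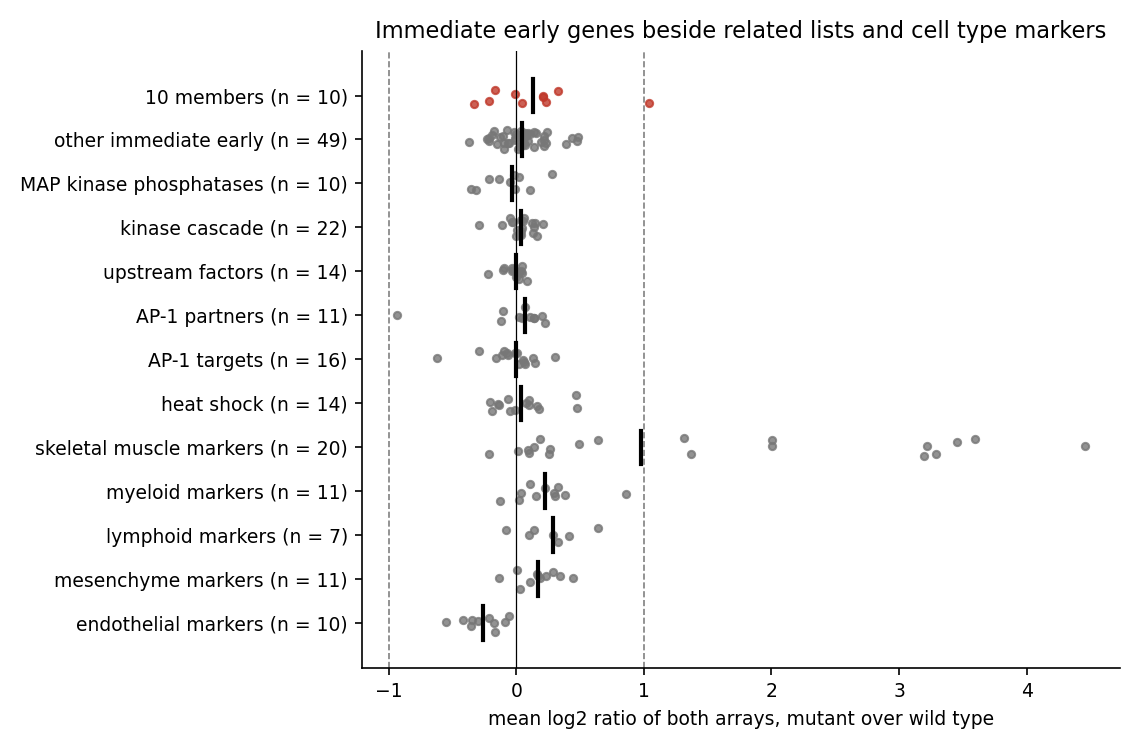
Mean log2 ratio of mutant over wild type for each gene of the immediate early genes (red) and of related lists and cell type markers (grey); thick bars are list medians, n is the number of genes measured and dashed lines are 2-fold. The members' median is 0.13 and that of the skeletal muscle markers 0.98, with 10 of 20 muscle markers past 2-fold.

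Skeletal muscle markers and islet hormone genes also differed between the pools by the rule of size. Of 20 skeletal muscle markers measured of 24 listed, 10 passed the rule as higher and 0 as lower, with a median of 0.98. That median was 0.64 with no filter on dim probes and 0.85 with the median over each gene's probes. Myh4 and Myh8, myosin heavy chain genes counted among the 10 with log2 ratios of 2.01 and 3.29, each had another probe, at 0.12 for Myh4 and 0.057 for Myh8. The summed normalised intensity of the 20 muscle markers was 29133 to 30100 in the mutant pool, against 7938 to 8506 in the WT pool. Myl1, the fast myosin light chain gene, was 22.01-fold higher, while Myod1 and Myog, the myogenic regulators, had -0.21 and 0.01. Myeloid markers had a median of 0.22 (summed intensity 24891 to 27453 in the mutant pool, against 17323 to 17694 in the WT pool), lymphoid markers 0.29 (11501 to 11573, against 8412 to 10149), mesenchyme markers 0.17 (148597 to 166572, against 133589 to 148188) and endothelial markers -0.26 (7452 to 7886, against 9386 to 9771), and 0 members of these 4 lists passed. In the mutant pool Lyz2 alone gave 16737 and 14965 of the myeloid sum, and Cd3e alone 9543 and 9562 of the lymphoid sum. Of the 11 mesenchyme markers, 4 changed sign between the arrays. The part of muscle, myeloid, lymphoid, mesenchyme and endothelial cells in the Fos ratio, or in those of the other members, was not tested. Erythroid markers had a median of -0.035. For the labelled tissue, 16 of 17 listed acinar markers of the exocrine pancreas were above background, 8 of them saturated in every channel of both arrays. Of the other 8, Gp2, which encodes a zymogen granule membrane protein, passed as higher (1.93), Ctrl, a chymotrypsin-like protease gene, passed as lower (-1.11), and 6 did not pass; the median of these 8 was -0.14. Of 8 islet hormone genes, 7 passed the rule as lower.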

How the data were processed

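Pancreas RNA of 2 pooled pups per genotype was measured on 2 two-colour arrays with exchanged dyes. Per the file headers, the scanner files as deposited give linear intensity of spot and background in each channel. They also give a log10 ratio (Cy5 over Cy3) from the authors' scanner software, after background subtraction and dye normalisation. The labels name Feature Extraction 7.5, the file headers 8.5.1.1. Another deposited column, per the file headers, gives the software's error of that ratio. The deposited series table holds log2 ratios, which matched the software's values, turned to mutant over wild type, within 0.002 for 99.99% and 99.98% of probes, with a median of 0.0 in each column.

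With limma 3.58.1 (R 4.3.3), mean and background intensity were corrected by normexp (offset 50), normalised by loess with control spots at weight 0, stripped of outlier spots, turned to mutant over wild type and averaged. Normalised intensities are after loess and Aquantile and include the offset. Recovery of known ratios was checked on simulated dye swaps, but the recovered values are not reported here. The offset of 50 draws dim ratios toward 0, so recovery of the size of a ratio as dim as that of Fos is not shown. Median local backgrounds were 46.5 to 50, and 94.0% to 96.8% of spots per channel were flagged well above them. The arrays' ratios correlated across genes with r = 0.72. The 12 member probes were 1 spot each and none was saturated. Having only 2 arrays limits the precision.

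Of 41174 probes, 23315 were named through RefSeq accessions or symbols. A gene took the value of its brightest unsaturated probe, and genes well above background in 1 genotype on both arrays were kept. No build is given for the probe positions in the sources used here; 0 of the 12 lie inside their gene on GRCm38.p6, so that build was used only for names and promoters. All member probes are named. From each other list, genes past the rule and the 2 highest and 2 lowest were named; for cell type markers only examples. A few values that this rule would name are not reported here. Members and lists were chosen with earlier results of these data known. Python 3.11.15, pandas 2.3.3 and matplotlib 3.10.9 were used.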

Additional observations from a re-analysis of the deposited data

How the results depend on the processing

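Fos had a positive ratio under all 11 alternatives that give one, from 0.82 to 1.51, and was past the rule of size under all but 1; with the mutant in Cy3 alone it was 2.004-fold. Its ratio was 1.43 with a normexp offset of 0 and 1.51 (1.512) with the software's ratios or the deposited series table, against 1.04. With an offset of 100, added after seeing the data, it was 0.82 and 0 members passed, against 1; a larger offset by its construction draws dim ratios toward 0. The median of the 10 members was 0.055 under median centring and between 0.007 and 0.10 with 1 array alone, against 0.13; the cause was not tested. Of 99 values of the other 9 members, 95 kept their sign. The exceptions were Fosb and Nr4a1 with the mutant in Cy3 alone, and Dusp1 with the mutant in Cy5 alone and under median centring. Dropping or tightening the filter on dim probes could not move a member, as all 12 probes were above background in all 4 channels. The median over probes could move only Junb and Ier2, and the deposited series table repeats the software's ratios. The 11 alternatives and 99 values therefore include repeats. Lowering the rule to 1.5-fold added no member. Over all genes, 49 were higher and 42 lower with an offset of 0, and 50 and 44 with the software's ratios, against 38 and 25; 88 and 87 were at the 1.5-fold rule. With 1 pool per genotype, no alternative measures the spread between pups.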
